A study of Psychotria grandis and Psychotria costivenia and Psychotria revoluta with 6 samples.

Results

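In the leaf transcriptomes of 3 shrub species of the genus Psychotria, 144 of 45143 contigs were found at a clearly higher level in every nickel hyperaccumulator plant than in both plants of the non-accumulator. A contig is an assembled transcript, and its level is given as CPM, a count divided by its library total and put on the usual common scale. A contig belonged to the 144 when its lowest CPM + 1 over the 4 hyperaccumulator plants was at least 4 times its highest CPM + 1 over the 2 non-accumulator plants, with at least 1 count in the non-accumulator. The values of all 6 libraries chose the contigs, so the difference between the hyperaccumulators and the non-accumulator is described and not tested. The contigs carry running numbers and no gene name or sequence in the files, so no function can be given for any of them.

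The hyperaccumulators were P. grandis (2 plants, Mil Cumbres, collected on 27 June 2014) and P. costivenia (2 plants, La Coca, 12 June 2014). The non-accumulator was P. revoluta (2 plants, Mil Cumbres, plant 1 labelled 27 July 2014 and plant 2 labelled 27 June 2014). All were wild plants of gallery forest on serpentine soil, and each library held mRNA of the leaves of 1 plant. Reads of all species were counted on contigs assembled from 1 P. grandis plant, so a difference in sequence from that plant can change a count as well as a difference in expression, and the part it had in any level below was not tested. The P. grandis plants may differ from each other in this too. Phenotype cannot be told apart from the other traits of P. revoluta, the only non-accumulator, and in P. costivenia locality and date differ as well.

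Serpentine soils are rich in nickel and poor in calcium and other nutrients. Nickel hyperaccumulators take the metal up from such soils and hold it in leaf tissue at levels that are toxic to most plants. From other species, the trait is known to involve transporters of divalent metals, which load nickel into the xylem and the leaf vacuole, and organic ligands such as citrate, histidine and nicotianamine, which bind it. None of these gene families could be looked up here, since the contigs are known by number alone.

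Library totals ran from 45676087 to 57907913 counts. Across contigs, the Pearson correlation of log2(CPM + 1) was 0.850 between the P. grandis plants, 0.974 between those of P. costivenia and 0.989 between those of P. revoluta. P. grandis plant 2 correlated more closely with the P. revoluta plants (0.960 and 0.963) than with P. grandis plant 1. Results are therefore also given without either P. grandis plant. P. grandis plant 1 was not compared with the other species in this way, so these correlations do not tell which plant is unusual. Reads fell on 45142 of the 45143 contigs in P. grandis plant 1 and on 37455 in plant 2. In the other libraries they fell on 35362 to 38589 contigs, so by this count it was P. grandis plant 1 that stood apart. In the files of the P. revoluta samples, the header of the counts names another species code than the sample labels do, and the labels were followed.

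The 144 contigs took up 1.55% and 0.743% of the counts in the P. grandis plants and 1.77% and 1.62% in the P. costivenia plants, against 0.0474% and 0.0558% in the P. revoluta plants. The rule chose the contigs by these values, so the shares describe the choice. Exact 95% intervals (Clopper-Pearson) were 0.741% to 0.746% in P. grandis plant 2 and 0.0468% to 0.0479% in P. revoluta plant 1. They cover counting error only and not the spread between plants. The median level of the 144 was 29.0 and 12.4 CPM in P. grandis and 25.5 and 25.9 CPM in P. costivenia, against 0.397 and 0.430 CPM in P. revoluta. P. grandis plant 2 thus had the lowest median of the hyperaccumulators. The mean level over the 4 hyperaccumulator plants ran from 5.49 to 1630 CPM. It was under 10 CPM for 16 contigs, 10 to 100 CPM for 102, 100 to 1000 CPM for 22 and above 1000 CPM for 4.

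**Figure D1:**
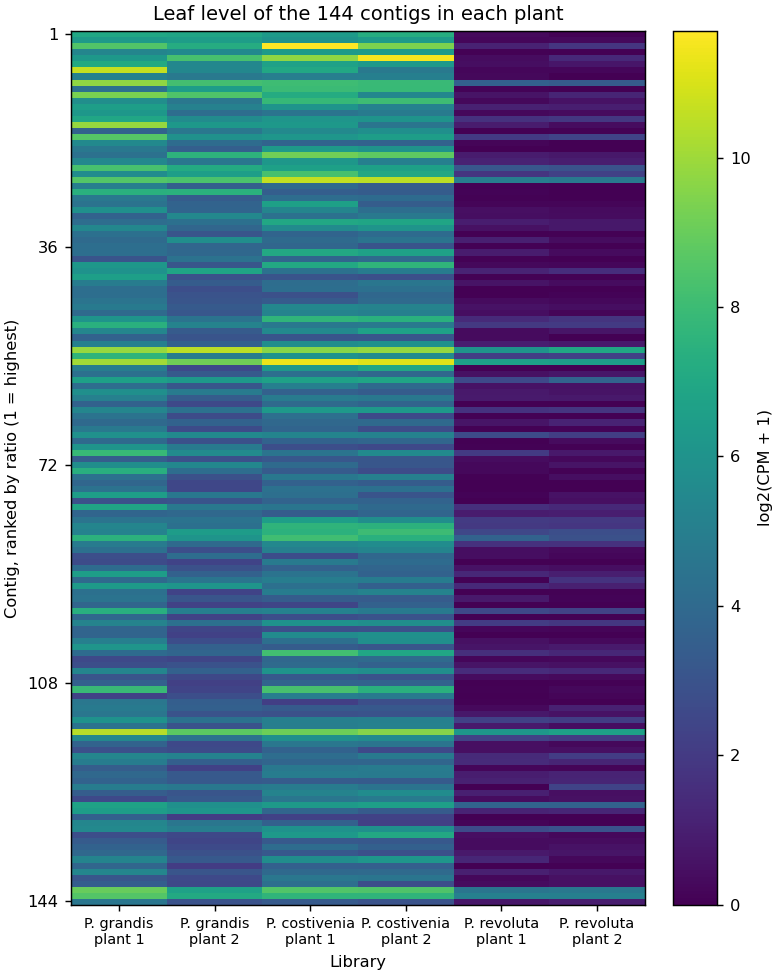
Level of the 144 contigs in each plant as log2(CPM + 1), with contigs in rows from the highest (1) to the lowest (144) ratio of the lowest hyperaccumulator level to the highest P. revoluta level, and libraries in columns. The P. grandis and P. costivenia columns are brighter than the P. revoluta columns in every row, as the choice of contigs requires, and a few rows are bright in P. revoluta too.

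The ratio of the lowest hyperaccumulator level to the highest P. revoluta level, on the scale of CPM + 1, had a median of 5.64 and a highest value of 66.8. It lay between 4 and 5 for 56 contigs, between 5 and 8 for 52, between 8 and 16 for 23, between 16 and 32 for 9, and above 32 for 4. On this scale, most contigs were thus within 8-fold of P. revoluta in their lowest hyperaccumulator plant. The added 1 CPM makes the ratio smaller than that of the levels themselves, most of all where P. revoluta had few reads. For Pgra_v1_contig_417 (ratio 4.49), the lowest hyperaccumulator level was 4.31 CPM and the highest P. revoluta level 0.184 CPM. Just inside the 4-fold limit were Pgra_v1_contig_10801 (ratio 4.01), Pgra_v1_contig_1413 (4.02) and Pgra_v1_contig_162 (4.03). Just outside were Pgra_v1_contig_9784 (3.996), Pgra_v1_contig_23025 (3.99) and Pgra_v1_contig_22394 (3.96).

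For most of the 144, P. revoluta had few reads. Over both P. revoluta plants, 32 contigs had 1 to 9 counts, 67 had 10 to 99, 36 had 100 to 999 and 9 had at least 1000. A single count was found for 9 contigs. In P. revoluta plant 1, 6 contigs had 0 counts, which allows up to 0.0518 CPM, and in plant 2, 15 had 0 counts, which allows up to 0.0615 CPM. In all, 90 of the 144 had at least 10 counts in each of the 6 libraries. A further 18 contigs met the ratio with 0 counts in P. revoluta and are not among the 144. Their median level over the hyperaccumulators was 12.7 CPM, where the 32 contigs with 1 to 9 counts had 15.5 CPM. The most abundant of the 18, Pgra_v1_contig_3002, had 112 and 20.3 CPM in P. grandis and 76.6 and 80.6 CPM in P. costivenia.

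The highest ratio belonged to Pgra_v1_contig_2798, with 125 and 116 CPM in P. grandis, 80.8 and 155 CPM in P. costivenia and 0.224 and 0.0615 CPM (13 and 3 counts) in P. revoluta. Next came Pgra_v1_contig_7222, with 82.4 and 91.3 CPM in P. grandis, 64.2 and 84.3 CPM in P. costivenia and 0.138 and 0.205 CPM in P. revoluta. In both contigs the P. grandis and P. costivenia plants overlapped, which with 2 plants each does not show an equal level. The low level in P. revoluta follows from their choice by the ratio. Pgra_v1_contig_9455 had 39.5 and 46.4 CPM in P. grandis and 80.8 and 84.8 CPM in P. costivenia, against 2 counts (0.0345 CPM) and 0 counts in P. revoluta. Pgra_v1_contig_2905 had 139 and 41.6 CPM in P. grandis and 102 and 77.9 CPM in P. costivenia, against 0.363 and 0.615 CPM in P. revoluta. Of this pair, Pgra_v1_contig_9455 was higher in both P. costivenia plants than in both P. grandis plants, while Pgra_v1_contig_2905 overlapped between the species. The third and the fifth in this order, Pgra_v1_contig_32845 and Pgra_v1_contig_1732, were also among the most abundant.

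Of the 8 contigs with the highest mean level over the hyperaccumulators, the first was Pgra_v1_contig_45, at 1086 and 579 CPM in P. grandis, 2603 and 2251 CPM in P. costivenia and 91.8 and 88.2 CPM in P. revoluta. Pgra_v1_contig_32845 had 365 and 148 CPM in P. grandis, 3314 and 671 CPM in P. costivenia and 1.17 and 2.48 CPM in P. revoluta. Pgra_v1_contig_1732 had 74.8 and 312 CPM in P. grandis, 862 and 3007 CPM in P. costivenia and 0.311 and 1.56 CPM in P. revoluta. All 3 were higher in both P. costivenia plants than in both P. grandis plants. They differed in P. revoluta, where Pgra_v1_contig_45 was still an abundant transcript and the others were scarce. In Pgra_v1_contig_32845 and Pgra_v1_contig_1732 the plants of a species also lay far apart, with the high P. costivenia plant being plant 1 for one contig and plant 2 for the other.

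Pgra_v1_contig_1173 had 939 and 1440 CPM in P. grandis, 788 and 918 CPM in P. costivenia and 65.2 and 123 CPM in P. revoluta. Pgra_v1_contig_1209 had 1408 and 430 CPM in P. grandis, 557 and 748 CPM in P. costivenia and 70.9 and 99.6 CPM in P. revoluta. Like Pgra_v1_contig_45, these 2 were well expressed in the non-accumulator, and they were the 3 contigs with the highest P. revoluta level among the 144. The fourth by that measure was Pgra_v1_contig_1413, at 381 and 137 CPM in P. grandis, 200 and 199 CPM in P. costivenia and 33.3 and 32.2 CPM in P. revoluta. Pgra_v1_contig_511 had 382 and 336 CPM in P. grandis, 1598 and 1440 CPM in P. costivenia and 30.8 and 25.8 CPM in P. revoluta. Its plants agreed closely within each species, in 3 separate levels. Pgra_v1_contig_395 had 855 and 296 CPM in P. grandis, 266 and 246 CPM in P. costivenia and 10.9 and 9.35 CPM in P. revoluta. Pgra_v1_contig_427 had 1620 and 41.2 CPM in P. grandis, 128 and 25.7 CPM in P. costivenia and 0.138 and 0.164 CPM in P. revoluta, from 8 counts in each P. revoluta plant. The place of Pgra_v1_contig_427 among the most abundant thus came from 1 plant.

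**Figure D2:**
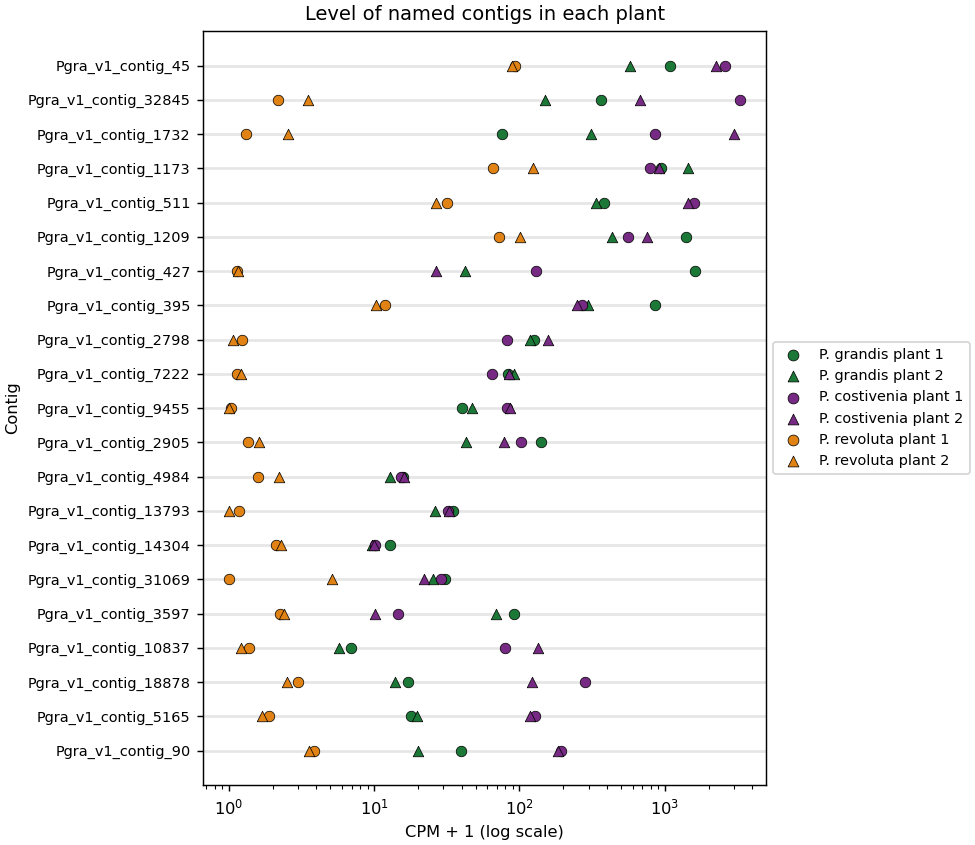
Level of the contigs with the highest means, the highest ratios and the smallest spread, and of those that differed between P. grandis and P. costivenia, on a log axis of CPM + 1, with 1 point per plant. In each row the orange P. revoluta points lie to the left of the other 4, and in the lowest 5 rows the green P. grandis points and the purple P. costivenia points are apart.

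Other contigs of the 144 with ratios above 16 or with many reads in P. revoluta are named here after their values were seen. Pgra_v1_contig_1190 (ratio 18.5) had 639 and 358 CPM in P. grandis, 144 and 42.2 CPM in P. costivenia and 0.518 and 1.33 CPM in P. revoluta. Pgra_v1_contig_2600 (16.8) had 93.8 and 34.5 CPM in P. grandis, 65.4 and 35.7 CPM in P. costivenia and 1.11 and 1.00 CPM in P. revoluta. Pgra_v1_contig_4646 (19.0) was higher in P. costivenia, at 250 and 231 CPM, than in P. grandis, at 19.7 and 90.5 CPM, and had 5 and 1 counts in P. revoluta. These 3 thus differed in which hyperaccumulator held more. Among the 9 contigs with at least 1000 counts in P. revoluta, Pgra_v1_contig_162 had 498 and 104 CPM in P. grandis, 363 and 357 CPM in P. costivenia and 22.6 and 25.1 CPM in P. revoluta. Pgra_v1_contig_13813 had 183 and 65.1 CPM in P. grandis, 274 and 172 CPM in P. costivenia and 11.7 and 6.58 CPM in P. revoluta. Pgra_v1_contig_8423 had 104 and 57.2 CPM in P. grandis, 83.0 and 96.5 CPM in P. costivenia and 12.7 and 11.9 CPM in P. revoluta. In all 3 of these, P. grandis plant 2 was the lowest hyperaccumulator plant, and the ranges of the hyperaccumulator species overlapped.

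The contigs differed widely in how even they were across the hyperaccumulators. The most even, by the standard deviation of log2(CPM + 1) over the 4 plants, was Pgra_v1_contig_4984 (0.15), at 14.9 and 11.9 CPM in P. grandis, 14.3 and 15.1 CPM in P. costivenia and 0.587 and 1.21 CPM in P. revoluta. Pgra_v1_contig_13793 (0.18) had 33.9 and 25.2 CPM in P. grandis and 31.2 and 31.8 CPM in P. costivenia, against 0.173 CPM (10 counts) and 0 counts in P. revoluta. For both, the spread over 4 plants of 2 species and 2 localities was small beside the distance to P. revoluta. Pgra_v1_contig_14304 and Pgra_v1_contig_31069 were the next most even, with standard deviations of 0.18 and 0.21. Pgra_v1_contig_31069 was uneven in P. revoluta instead, with 0 counts in plant 1 and 203 counts (4.16 CPM) in plant 2. It was, by this measure, the contig whose P. revoluta plants lay furthest apart, and Pgra_v1_contig_17550 followed with 3 and 111 counts.

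At the other end, Pgra_v1_contig_417 had a standard deviation of 2.76. It had 243 and 4.31 CPM in P. grandis and 309 and 171 CPM in P. costivenia, against 0.0518 and 0.184 CPM in P. revoluta. P. grandis plant 2 alone held it near the limit of the rule. Pgra_v1_contig_427 came next (2.65), through its level in P. grandis plant 1. Pgra_v1_contig_10837 (2.36) and Pgra_v1_contig_5025 (2.29) were uneven in another way, with the plants of each species close together and the species far apart. Pgra_v1_contig_5025 had 171 and 174 CPM in P. grandis and 10.4 and 9.73 CPM in P. costivenia, against 4 counts (0.0691 CPM) and 0 counts in P. revoluta.

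The plants of P. grandis contributed unequally to the choice of the contigs. P. grandis plant 2 was the lowest of the 4 hyperaccumulator plants for 87 of the 144 contigs (60.4%), where it was the lowest for 19.1% of the 35660 contigs tested. P. grandis plant 1 was the lowest for 16 (11.1%, against 29.5% of all tested), P. costivenia plant 1 for 13 (9.03%, against 22.9%) and P. costivenia plant 2 for 28 (19.4%, against 24.6%). The highest plant was P. grandis plant 1 for 69 contigs (47.9%, against 32.4%), P. grandis plant 2 for 9 (6.25%, against 36.9%), P. costivenia plant 1 for 38 (26.4%, against 14.8%) and P. costivenia plant 2 for 28 (19.4%, against 15.9%). These values chose the contigs and are given as a description. The 13602 contigs with at least 3 CPM in all 4 hyperaccumulator plants gave other shares. Among these, P. grandis plants 1 and 2 were lowest for 40.2% and 20.2%, and P. costivenia plants 1 and 2 for 19% and 20.6%. In the same order, the plants were highest for 29.1%, 33.2%, 19.5% and 18.1%. Reads fell on 45142 contigs in P. grandis plant 1 and on 37455 in plant 2. The part this had in these shares was not tested. Between the P. grandis plants, 23 of the 144 (16%) were at least 4-fold higher in plant 1. That size was reached by 1.98% of the 13602 and 4.12% of all tested. At least 4-fold lower in plant 1 were 3 (2.08%, against 7.01% and 6.65%). The 3 were Pgra_v1_contig_18512, Pgra_v1_contig_4646 and Pgra_v1_contig_1732, named after their values were seen. Pgra_v1_contig_18512 had 19.8 and 189 CPM in P. grandis, 567 and 442 CPM in P. costivenia and 0.829 and 0.676 CPM in P. revoluta. In these 3 contigs P. grandis plant 2, the lowest hyperaccumulator for most of the 144, was nearer to P. costivenia than P. grandis plant 1 was.

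**Figure D3:**
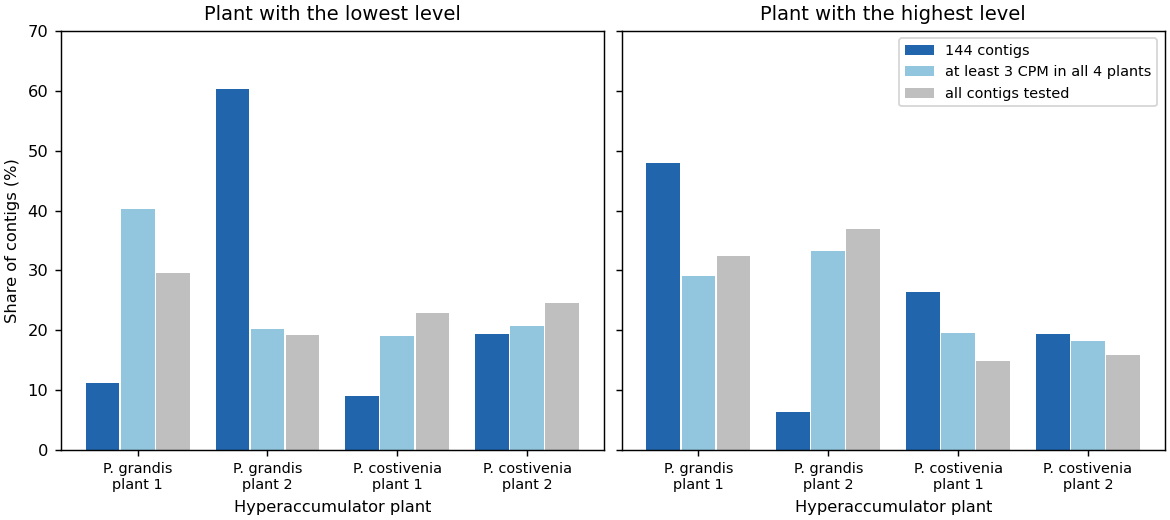
Share of contigs, in percent, for which each hyperaccumulator plant had the lowest (left) or the highest (right) CPM of the 4, for the 144 contigs, for the 13602 contigs with at least 3 CPM in all 4 plants, and for all contigs tested. P. grandis plant 2 is the lowest plant for 60.4% of the 144 contigs and the highest for 6.25%.

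Among the 144, the median absolute log2 ratio of CPM + 1 between the plants of a species was 1.25 between the P. grandis plants, 0.31 between the P. costivenia plants and 0.15 between the P. revoluta plants. Over all contigs tested it was 0.68 between the P. grandis plants, 0.20 between those of P. costivenia and 0.16 between those of P. revoluta. The level of a contig matters for such a comparison, because the rule can be met only with at least 3 CPM in every hyperaccumulator plant. The 13602 contigs with that level had medians of 0.69, 0.20 and 0.16 for these species, close to those of all tested. Between the P. costivenia plants, 3 of the 144 were at least 4-fold higher in plant 1, namely Pgra_v1_contig_15243, Pgra_v1_contig_32845 and Pgra_v1_contig_427. The 3 made up 2.08%, against 0.353% of the 13602 and 0.673% of all tested. At least 4-fold lower were 0 of the 144 (against 0.0809% and 0.721%). Between the P. revoluta plants, 0 of the 144 were at least 4-fold higher in plant 1. The share there was 0.191% of the 13602 and 0.196% of all tested. At least 4-fold lower was 1, Pgra_v1_contig_31069 (against 0.0809% and 0.115%). With so few contigs, the shares in P. costivenia and P. revoluta are not read as differing from either background. Pgra_v1_contig_15243 had 20.8 and 12.3 CPM in P. grandis, 100 and 9.83 CPM in P. costivenia and 0.104 and 0.102 CPM in P. revoluta.

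The same rule was applied with each hyperaccumulator plant left out, and the level of the contigs so chosen was read in the plant that was not used. Without P. grandis plant 1, the other 3 plants chose 167 contigs, and 144 of them (86.2%) were at least 4-fold above both P. revoluta plants in P. grandis plant 1, a size reached there by 7.88% of all contigs tested. Without P. costivenia plant 1 or plant 2, the rule chose 174 or 177 contigs, of which 144 (82.8% or 81.4%) reached that size in the plant left out, against 5.12% or 5.27% of all tested. P. grandis plant 2 was different. Without it the rule chose 507 contigs, and 144 (28.4%) reached 4-fold in it, against 1.46% of all tested. On the scale of CPM + 1, a further 228 of the 507 lay 2-fold to 4-fold above P. revoluta in P. grandis plant 2. By less than that 112 were above it, and 23 were not above it. The P. revoluta plants are shared by the choice and by the reading, and the 144 are the same contigs each time. The contigs tested were not chosen for a low level in P. revoluta, so their shares are not a like background. The shares describe how much each plant narrowed the list and were not tested.

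**Figure D4:**
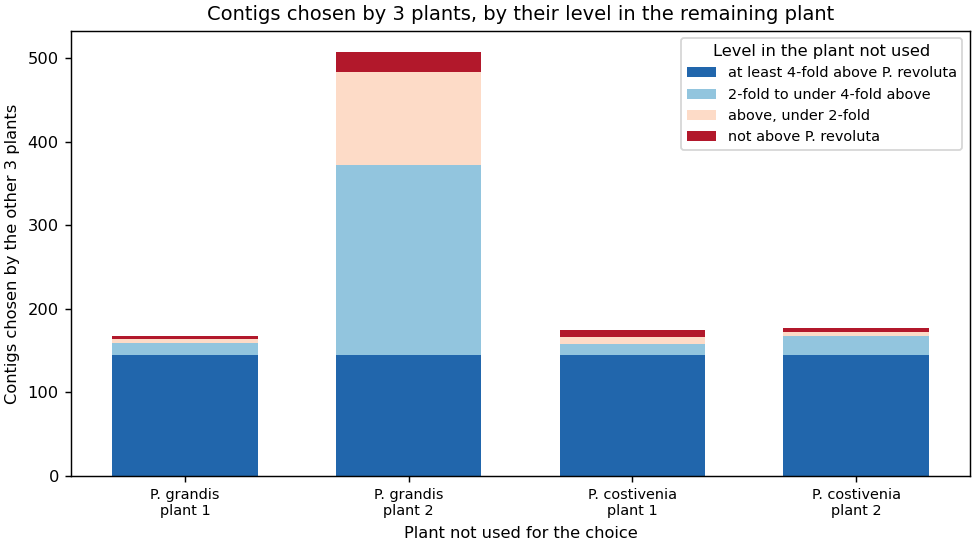
Number of contigs chosen by 3 of the hyperaccumulator plants, stacked by their level in the plant that was not used, relative to the higher P. revoluta plant on the scale of CPM + 1. The bar for P. grandis plant 2 reaches 507, against 167 to 177 for the other plants, and its lowest segment is 144 contigs in each case.

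Among the 144 themselves, the median ratio of CPM + 1 to that of the higher P. revoluta plant was 14.3 in P. grandis plant 1 and 6.36 in P. grandis plant 2. It was 13.6 and 12.9 in the P. costivenia plants. On this scale of CPM + 1, at least 16-fold above P. revoluta were 67 and 29 contigs in the P. grandis plants and 64 and 57 contigs in the P. costivenia plants. The values chose the contigs, so these counts are a description. The share of all contigs at that size was not worked out.

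Setting P. grandis against P. costivenia asks how far the hyperaccumulators differ in contigs that both hold above the non-accumulator. The difference was tested over all 35660 contigs by edgeR's quasi-likelihood test with Benjamini-Hochberg adjustment. The rule set a lower limit on the lowest of these same 4 plants, so it also acted on the difference between the species, and the counts and shares of the 144 below are a description. All 144 contigs passed the filter on low counts. Of them, 1 was higher in P. grandis (0.694%, against 1.83% of all tested) and 4 were lower (2.78%, against 0.852%). In the 13602 contigs with at least 3 CPM in every hyperaccumulator plant, 0.676% were higher and 1.4% lower. With 1 and 4 contigs, the shares of the 144 are not read as differing from either background.

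The contig higher in P. grandis was Pgra_v1_contig_3597, at 90.2 and 68.4 CPM in P. grandis, 13.6 and 9.11 CPM in P. costivenia and 1.24 and 1.41 CPM in P. revoluta. Its log2 fold change of P. grandis over P. costivenia was 2.58 (SE 0.37, edgeR adjusted p = 0.0437). P. costivenia stood between P. grandis and P. revoluta, and in the 4 lower contigs it was P. grandis that stood between. The rule fixes this order for any of the 144 that differ between the hyperaccumulators, so it is not a result. Pgra_v1_contig_10837 had 5.93 and 4.71 CPM in P. grandis, 78.5 and 134 CPM in P. costivenia and 0.380 and 0.205 CPM in P. revoluta. P. grandis over P. costivenia gave -4.54 on the log2 scale (SE 0.49, edgeR adjusted p = 0.0380). Pgra_v1_contig_18878 had 16.02 and 12.9 CPM in P. grandis, 281 and 120 CPM in P. costivenia and 2.00 and 1.496 CPM in P. revoluta. P. grandis over P. costivenia gave -4.02 on the log2 scale (SE 0.55, edgeR adjusted p = 0.0398). In both, the levels in P. grandis were nearer to those of P. revoluta than to those of P. costivenia, in CPM and in log2(CPM + 1). In CPM this also held for the lower contigs that follow. Pgra_v1_contig_5165 had 17.0 and 18.8 CPM in P. grandis, 126 and 116 CPM in P. costivenia and 0.898 and 0.697 CPM in P. revoluta. P. grandis over P. costivenia gave -3.00 on the log2 scale (SE 0.28, edgeR adjusted p = 0.0290). Pgra_v1_contig_90 had 38.5 and 19.1 CPM in P. grandis, 193 and 184 CPM in P. costivenia and 2.85 and 2.58 CPM in P. revoluta. P. grandis over P. costivenia gave -2.92 on the log2 scale (SE 0.48, edgeR adjusted p = 0.0496). For each of the 5, the plants of P. grandis and those of P. costivenia did not overlap. DESeq2 and limma-voom called these 5 contigs too, among 10 higher and 29 lower of the 144 in DESeq2 (6.94% and 20.1%) and 2 higher and 9 lower in limma-voom (1.39% and 6.25%). Of all contigs tested, DESeq2 called 13.3% higher and 9.1% lower and limma-voom 1.28% and 1.48%, and of the 13602 DESeq2 called 6.58% and 13.7% and limma-voom 0.544% and 2.01%. Without the filter on low counts, edgeR called 3 of the 144 higher and 7 lower (2.08% and 4.86%, against 1.85% and 1.12% of all contigs in that fit). All 5 calls were lost in edgeR when any 1 P. costivenia or P. revoluta plant was left out, with adjusted p between 0.144 and 0.251, and in the model of the 4 hyperaccumulator libraries alone (0.137 to 0.142). In each of these fits edgeR called 0 of all contigs in either direction, so the loss was not particular to the 5. With a P. costivenia or P. revoluta plant left out, 5 to 9 of the 144 were higher and 23 to 35 lower at an unadjusted p of at most 0.05 in edgeR, and in the model of 4 libraries 11 and 28. In that model, 13.2% of all contigs were higher and 6.46% lower at that threshold. Of all contigs, 8.31% and 7.73% were higher without P. costivenia plant 1 or plant 2, and 9.31% and 10.6% without P. revoluta plant 1 or plant 2. Lower were 5.46% and 5.34% without the P. costivenia plants and 6.84% and 5.54% without the P. revoluta plants. Over all alternatives, the log2 fold change kept its sign and ran from 2.21 to 2.87 for Pgra_v1_contig_3597, from -4.98 to -4.21 for Pgra_v1_contig_10837, from -4.61 to -3.38 for Pgra_v1_contig_18878, from -3.15 to -2.76 for Pgra_v1_contig_5165 and from -3.65 to -2.41 for Pgra_v1_contig_90. The call of Pgra_v1_contig_90 was also lost in edgeR with the size factors of DESeq2 (adjusted p = 0.0573), where 1 of the 144 was higher and 3 were lower (1.67% and 0.822% of all tested). Over all alternatives the adjusted p of the 5 ran from 8.27e-19 (DESeq2) to 0.251.

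The balance of the 144 between the hyperaccumulators depended on the P. grandis plant. The median log2 fold change of P. grandis over P. costivenia was -0.39 for the 144, -0.17 for the 13602 contigs with at least 3 CPM in every hyperaccumulator plant, which include every contig that can meet the rule, and 0.24 for all contigs tested. Without P. grandis plant 1 it was -1.26 for the 144, -0.23 for the 13602 and 0.07 for all. In that fit edgeR called 5 of the 144 higher (3.47%, against 8.79% of the 13602 and 13.1% of all) and 52 lower (36.1%, against 17.1% and 11.1%). Without P. grandis plant 2 it was -0.01 for the 144, -0.26 for the 13602 and 0.32 for all. There edgeR called 25 of the 144 higher (17.4%, against 13.5% of the 13602 and 13.1% of all) and 25 lower (17.4%, against 22.8% and 12.7%). Calls were thus far more frequent over all contigs in both fits than with both P. grandis plants. Each of these fits left P. grandis with 1 plant, which was assumed to vary like the other groups. Scaling by library totals alone put the median at -0.19 for the 144, at 0.07 for the 13602 and at 0.48 for all contigs, and gave 2 higher and 4 lower contigs of the 144. Over all contigs, that scaling gave 795 higher (2.23%) and 207 lower (0.58%) in place of 652 and 304.

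**Figure D5:**
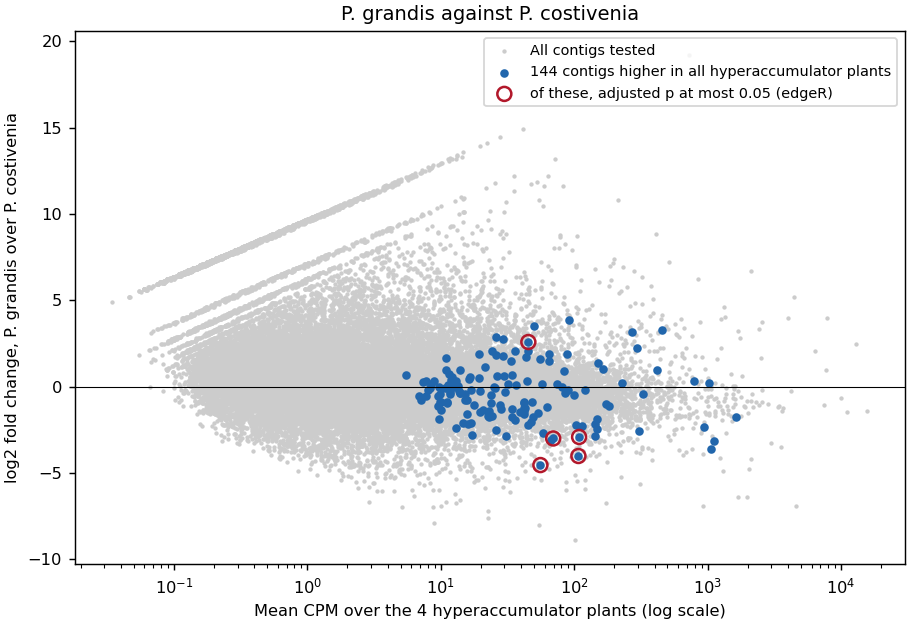
Log2 fold change of P. grandis over P. costivenia (edgeR, 2 plants each) against the mean CPM over the 4 hyperaccumulator plants on a log axis, for all 35660 contigs tested (grey) and the 144 contigs (blue), with rings around those with an adjusted p of at most 0.05. The blue points run from -4.54 to 3.86, and 1 ring lies above and 4 lie below 0.

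Without regard to a test, both P. grandis plants were above both P. costivenia plants in 23 of the 144 contigs (16%, against 35.1% of all tested). Both were below in 53 (36.8%, against 20.2%). The species overlapped in the other 68, which are only the remainder and are not read as a result about the 144. At the unadjusted threshold of edgeR, 10 were higher (6.94%, against 8.75% of the 13602 and 15.6% of all tested) and 38 lower (26.4%, against 15.9% and 10.5%) in P. grandis. In the contigs with at least 3 CPM in every hyperaccumulator plant, both P. grandis plants were above in 28.1% and below in 26.4%. A gap of at least 4-fold between the nearest plants of the species was found with P. grandis above in 2 of the 144 (1.39%, against 0.831% of the 13602 and 1.89% of all tested) and with P. grandis below in 7 (4.86%, against 0.897% and 0.976%). The 2 were Pgra_v1_contig_3597 and Pgra_v1_contig_5025, whose log2 fold change of 3.86 (SE 0.65) missed the threshold (adjusted p = 0.0521 by edgeR). Pgra_v1_contig_5025 passed in 6 of 13 alternatives, among them DESeq2 (adjusted p = 3.81e-18), limma-voom (0.0416), library totals (0.0496) and no filter on low counts (0.0426), and its highest adjusted p was 0.325. The 7 were the 4 called contigs and Pgra_v1_contig_10755, Pgra_v1_contig_4728 and Pgra_v1_contig_20114. Pgra_v1_contig_4728 had 53.8 and 24.2 CPM in P. grandis, 226 and 267 CPM in P. costivenia and 0.207 and 0.471 CPM in P. revoluta (log2 fold change -2.86, SE 0.64, adjusted p = 0.0760 by edgeR, and 0.000767 to 0.293 over all alternatives, the lowest in DESeq2). Pgra_v1_contig_10755 had 17.8 and 13.8 CPM in P. grandis, 132 and 104 CPM in P. costivenia and 0.863 and 0.287 CPM in P. revoluta (log2 fold change -3.12, SE 0.56, adjusted p = 0.0563 by edgeR, and 1.68e-05 to 0.241 over all alternatives, the lowest in DESeq2).

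The abundant contigs named above did not pass this test in edgeR with all 6 libraries. The log2 fold changes of P. grandis over P. costivenia were -1.75 (SE 0.62) for Pgra_v1_contig_45, -3.15 (SE 1.06) for Pgra_v1_contig_32845, -3.62 (SE 1.22) for Pgra_v1_contig_1732 and -2.31 (SE 0.48) for Pgra_v1_contig_511. Their adjusted p-values by edgeR ran from 0.0681 to 0.156. DESeq2 called all 4 lower in P. grandis, with adjusted p-values of 0.0119, 0.00927, 0.00342 and 1.60e-08, and limma-voom called Pgra_v1_contig_511 (0.0433). Over all alternatives the adjusted p-values of these 4 ran from 1.60e-08 to 0.489. For Pgra_v1_contig_2798 and Pgra_v1_contig_7222, which had the highest ratios to P. revoluta, the values were -0.20 (SE 0.56) and -0.01 (SE 0.31), with adjusted p-values of 0.843 and 0.980 by edgeR and of 0.632 to 0.998 over all alternatives. A p above the threshold does not show that these levels were equal.

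Low running numbers were frequent among the 144 contigs. Numbers 1 to 4514 held 50 of them (34.7%), numbers 4515 to 9029 held 35 (24.3%) and numbers 9030 to 13543 held 33 (22.9%). The other 26 had higher numbers, and none was above 36114. Over all contigs, the median level was lower at higher numbers, at 39.2 CPM up to 4514, 13.2 CPM from 9030 to 13543 and 0.1002 CPM from 40630 to 45143. The contigs with at least 3 CPM in every hyperaccumulator plant were distributed in a like way, with 26.3%, 24.4% and 20.6% in the first 3 of these ranges. What the number stands for is not given in the sources used here. Pgra_v1_contig_32845, one of the most abundant, was the member with the highest number.

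Some of the 144 had neighbouring numbers. Pairs at most 4 numbers apart were formed by 14 contigs, and 3 pairs were adjacent. Low numbers were frequent among the 144, and how many such pairs that alone would give was not worked out. Pgra_v1_contig_1828, Pgra_v1_contig_1830, Pgra_v1_contig_1833 and Pgra_v1_contig_1834 formed the closest group. In P. grandis they stood at 55.6 and 28.1, 172 and 36.7, 39.7 and 23.0, and 906 and 73.3 CPM. In P. costivenia they stood at 11.3 and 9.48, 24.9 and 25.4, 11.2 and 3.58, and 74.0 and 22.6 CPM. For the first 3 of them both P. grandis plants were above both P. costivenia plants, and for Pgra_v1_contig_1834 P. grandis plant 2 was just below P. costivenia plant 1. None of the 4 passed the test between the species in edgeR with all 6 libraries (adjusted p = 0.0975 to 0.211). DESeq2 called Pgra_v1_contig_1828 (0.0162) and Pgra_v1_contig_1834 (0.0399). For some of the 4, the outcome in edgeR changed when P. grandis plant 2 was left out, a fit with 1 P. grandis plant. Adjacent numbers did not always go with a like pattern. Pgra_v1_contig_1733 had 96.5 and 6.57 CPM in P. grandis and 7.19 and 6.33 CPM in P. costivenia, where Pgra_v1_contig_1732 had its highest levels in P. costivenia. Whether neighbouring contigs are parts of 1 transcript was not tested, and reads shared between near-identical contigs may have been divided among them.

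For the 3 most abundant of the 144, the contigs with the most similar pattern were sought among 26443 contigs with a mean of at least 1 CPM, by the Pearson correlation of log2(CPM + 1) over the 6 libraries, which is a description from 6 points. For Pgra_v1_contig_45 these were Pgra_v1_contig_9868 (0.9999) and Pgra_v1_contig_13680 (0.999), both of the 144. Pgra_v1_contig_9868 had 24.8 and 10.6 CPM in P. grandis and 81.8 and 63.9 CPM in P. costivenia, against 1 count (0.0173 CPM) and 0 counts in P. revoluta. For Pgra_v1_contig_1732 the nearest was Pgra_v1_contig_15149 (0.997), also of the 144, at 35.7 and 87.2 CPM in P. grandis, 184 and 262 CPM in P. costivenia and 4.63 and 6.07 CPM in P. revoluta. It shared the order of the plants with Pgra_v1_contig_1732, with P. costivenia plant 2 highest and P. grandis plant 1 lowest of the hyperaccumulators, over a narrower range. The second was Pgra_v1_contig_10327 (0.994), which is not of the 144, with a ratio of 1.39. For Pgra_v1_contig_32845 the nearest were Pgra_v1_contig_22040 (0.999) and Pgra_v1_contig_10397 (0.998), which are not of the 144, with ratios of 1.45 and 2.73. The correlation takes no account of the size of a difference, so a contig with small differences can match one with large ones.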

How the data were processed

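Leaf mRNA of 6 wild plants (3 species, 2 plants each) was measured by RNA sequencing. Per the labels' protocols, total RNA treated with DNase was made into stranded Illumina TruSeq libraries. The authors deposited raw read counts, with a file for each plant that lists contigs and their counts, per the file headers. Reads were counted on a P. grandis transcriptome assembled de novo, per the series design text. The sources used here do not give the assembler, aligner or counter, whether strand was used, or how reads matching several contigs were handled. The contigs, lists and measures were chosen with earlier results of these data known.

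CPM used library totals. At 1 CPM, the shallowest library held 46 counts (exact 95% interval 0.737 to 1.34 CPM), and at 10 CPM 457 counts (9.11 to 11.0 CPM). Intervals and floors (3 counts) cover counting error alone. Within each species, the libraries differed beyond sampling noise (chi-square per contig 62.2 to 670, near 1 for sampling alone), so all were counted separately. The plants are replicates by their labels.

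The test used edgeR 4.0.16 in R 4.3.3, with filterByExpr by species (minimum count 10, minimum total 15; 35660 contigs), TMM, and 1 robust quasi-likelihood model of species over all 6 libraries, which has 3 residual degrees of freedom and prior ones of 2.43 in the median. The contrast P. grandis over P. costivenia was tested two-sided, adjusted by Benjamini-Hochberg over all contigs, threshold 0.05. The SE is the absolute log2 fold change over the square root of F. DESeq2 1.42.0 and limma 3.58.1 (voom) were alternatives. The contigs named were the 8 with the highest mean over the hyperaccumulators, the 6 with the highest ratio, the 4 most even and 4 least even, the 4 highest in P. revoluta, up to 5 called in each direction, the 3 nearest to the limit on either side and, for 3 contigs, the 2 most similar. Others were named after their values were seen. Gene lists for metal transport, metal ligands, iron and sulfur could not be applied, as the contigs have no names.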

Additional observations from a re-analysis of the deposited data

How the results depend on the processing

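The number of contigs that met the rule was 144 with TMM library sizes as well, 128 of them shared. It was 717 with an offset of 0.1 and 291 with 0.5, and 859 at 2-fold and 36 at 8-fold. With each library left out it ran from 167 to 507, the highest without P. grandis plant 2. A minimum of 10 counts in P. revoluta left 112 contigs, and no minimum gave 162. Between P. grandis and P. costivenia, the 1 higher and 4 lower contigs became 2 and 4 with library totals, 10 and 29 in DESeq2, 2 and 9 in limma-voom, 3 and 7 without the filter on low counts (1.85% and 1.12% of all contigs), and 0 and 0 in the model of 4 libraries. They became 0 to 25 higher and 0 to 52 lower with a library left out (edgeR). Without P. grandis plant 1 or plant 2, 13.1% of all contigs were higher in each fit and 11.1% or 12.7% lower. Wherever a P. costivenia or P. revoluta plant was left out, as in the model of 4 libraries, 0 of all contigs were called. The plant numbers of the titles are not said to pair plants, and the deviations of same-numbered P. grandis and P. costivenia plants correlated at 0.12. With the plant number as a replicate block, 0 of all contigs were called in either direction in edgeR, and the 5 calls had adjusted p-values between 0.0858 and 0.0980. In that fit 10 of the 144 were higher and 41 lower (6.94% and 28.5%, against 12.7% and 9.38% of all contigs) at the unadjusted threshold. The cause of these changes was not tested. Of the named contigs, signs turned for those with small or uneven differences. With library totals the log2 fold change was 0.18 for Pgra_v1_contig_14304, 0.037 for Pgra_v1_contig_2798, 0.0073 for Pgra_v1_contig_2905, 0.15 for Pgra_v1_contig_31069 and 0.23 for Pgra_v1_contig_7222. In the model of 4 libraries it was 0.086 for Pgra_v1_contig_14304, 0.050 for Pgra_v1_contig_31069 and 0.12 for Pgra_v1_contig_7222. Under the block it was 0.0071 for Pgra_v1_contig_7222, and in limma-voom -0.040 for Pgra_v1_contig_1413. With a library left out, it ran from -0.60 to 1.43 for Pgra_v1_contig_10801, from -0.95 to 1.00 for Pgra_v1_contig_1209, from -0.89 to 0.82 for Pgra_v1_contig_1413, from -0.40 to 0.26 for Pgra_v1_contig_14304, from -2.14 to 0.35 for Pgra_v1_contig_162, from -0.69 to 0.25 for Pgra_v1_contig_2798, from -1.46 to 0.50 for Pgra_v1_contig_2905, from -0.37 to 0.16 for Pgra_v1_contig_31069, from -0.14 to 1.62 for Pgra_v1_contig_395, from -1.25 to 4.69 for Pgra_v1_contig_427 and from -0.29 to 0.10 for Pgra_v1_contig_7222.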
